A study of Rattus norvegicus with 18 samples.

Results

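Kidneys of SD rats given CdCl2 for 6 or 12 weeks were compared with kidneys of rats given normal saline for the same time, with both times pooled. The comparison used 12 of the 18 arrays of the series: 6 arrays of CdCl2 kidneys, 3 at 6 weeks and 3 at 12 weeks, and 6 arrays of normal saline kidneys, 3 at each time. The other 6 arrays, 3 of CdCl2 kidneys and 3 of saline kidneys at 1 day, entered the estimate of the spread and 1 comparison. The samples were assigned by their labelled time and treatment. Total RNA from frozen kidney was labelled with biotin and hybridised to Affymetrix rat arrays, and each array is labelled as a biological replicate. Dose, route, age, sex and hour of collection are not given in the sources used here.

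Cadmium is taken up by proximal tubule cells, where metallothioneins, small cysteine-rich proteins, bind it. Metals and electrophiles free the transcription factor NRF2 from its inhibitor KEAP1, and NRF2 then drives genes of antioxidant defence, conjugation and export, many of which the repressor BACH1 holds down. Interferons act through a separate route, in which a factor that contains STAT2 and IRF9 binds the interferon-stimulated response element and switches on antiviral genes, among them IRF7, which amplifies the response.

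Promoter sequences of 6 genes whose signal rose are shown because they carry the DNA motif bound by these factors. The sequences are those of RefSeq for build GRCr8, within the 250 bases before the annotated start, written 5′ to 3′ on the strand of the gene, with the motif in capitals. The interferon-stimulated response element was searched as GAAANNGAA and the antioxidant response element as TGACNNNGC, on both strands, so a match on the opposite strand appears as its reverse complement. Irf7, Oas1a and Parp14 hold the first motif, with 2 overlapping matches in Oas1a. Txnrd1, Gsta3 and Ephx1 hold the second.
Irf7, chr1:205800053-205800121, minus strand: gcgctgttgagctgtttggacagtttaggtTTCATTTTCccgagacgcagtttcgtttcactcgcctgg
Oas1a, chr12:41330395-41330465, plus strand: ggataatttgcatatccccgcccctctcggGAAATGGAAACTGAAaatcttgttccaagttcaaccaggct
Parp14, chr11:78408028-78408096, plus strand: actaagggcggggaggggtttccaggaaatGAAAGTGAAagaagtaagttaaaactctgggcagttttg
Txnrd1, chr7:22755944-22756012, minus strand: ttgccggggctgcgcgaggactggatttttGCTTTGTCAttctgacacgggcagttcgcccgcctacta
Gsta3, chr9:31154942-31154988, plus strand: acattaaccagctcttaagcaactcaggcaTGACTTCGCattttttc
Ephx1, chr13:95263136-95263204, minus strand: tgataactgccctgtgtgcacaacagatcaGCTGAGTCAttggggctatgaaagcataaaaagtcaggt
Of the 22084 genes tested, 17119 had a promoter sequence, among them 62 that rose and 9 that fell. The interferon-stimulated response element was in 16 of the 62 genes that rose, in 6 of the 11 of these that belong to the interferon list, and in 2 of the 9 that fell, against 7.86% of all 17119 promoters. The antioxidant response element was in 13 of the 62 genes that rose, in 3 of the 7 of these that belong to the antioxidant, glutathione transferase, conjugation or efflux lists, and in 1 of the 9 that fell, against 12.1% of all promoters. A match describes these letters in this window and is not evidence of binding.

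The arrays carried the defining markers of kidney. All 5 proximal tubule markers averaged 13.02 or more on the deposited log2 scale and all 4 distal nephron markers 15.81 or more, against a background level of 4.22, below which 95% of 1276 genes for odorant and vomeronasal receptors lay. All 3 measured neutrophil markers lay below that background, as did the adrenal marker Star. Of the 3 adipose and the 3 urothelium markers, 2 of each averaged above it, with highest means of 6.89 and 4.27. The mean signal of 12 adipose genes was 5.91 to 6.03 in CdCl2 kidneys of 6 weeks, against 5.33 to 5.54 in saline kidneys. It overlapped at 12 weeks, and 0 of the 12 passed the pooled test. The deposited scale ended at 19.93, so differences of very bright genes are compressed, and log2 differences here are differences of deposited signal, not calibrated folds. Some arrays stood apart within their group. The difference between the clock genes Bmal1 and Dbp, which peak at opposite times of day, was -7.15, -7.23 and 1.15 in the 3 CdCl2 kidneys of 6 weeks, against -6.08, -5.87 and -6.73 in saline kidneys. At 12 weeks it was 1.02, -5.43 and 0.73 in CdCl2 kidneys, against 1.80, -0.17 and 2.70 in saline kidneys. The mean signal of 28 proximal tubule transport genes was 12.73, 13.85 and 12.38 in CdCl2 kidneys of 12 weeks, against 13.04, 14.15 and 14.20 in saline kidneys.

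Many more genes rose than fell in kidneys of long CdCl2 exposure, and the rises included antiviral interferon targets and antioxidant, conjugation and export genes. Over both times, 75 genes rose, 0.34% of the 22084 tested, and 12 fell, 0.0543% (limma, adjusted p under 0.05). Of the genes that rose, 33 had a difference of 1 or more (log2 signal), and none of those that fell changed by as much. The rises were from 0.25 to 5.97, with a median of 0.89, and the falls from -0.30 to -0.95, with a median of -0.51. A gene was counted as changed at both times where it passed the pooled test and all 3 CdCl2 kidneys lay on the same side of all 3 saline kidneys at 6 weeks and again at 12 weeks. By this count 51 genes rose and 9 fell. Of all genes tested, 195, or 0.883%, lay apart upwards at both times and 115, or 0.521%, downwards, whether or not they passed the test. Of the other 27 genes that passed, 22 had separate groups at 12 weeks only and 5 at 6 weeks only. With 1 array left out, the count of genes that rose lay between 33 and 106, that of genes that fell between 4 and 50, and 34 of the 87 genes passed without each array in turn. Without the CdCl2 kidneys of 6 weeks replicate 3 and 12 weeks replicate 2, whose Bmal1 minus Dbp values lay apart from their groups, 34 genes rose and 3 fell, and 30 of the 87 still passed.

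**Figure D1:**
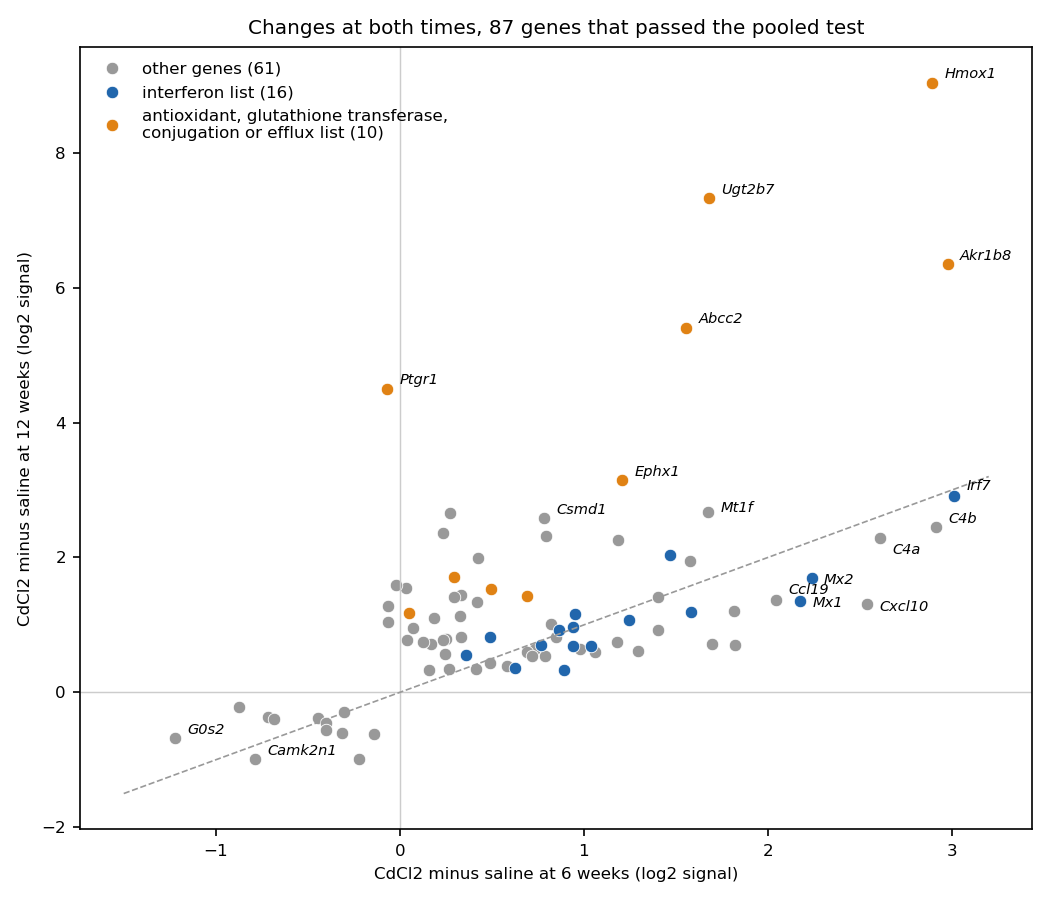
Difference between CdCl2 and saline kidneys at 6 weeks (x axis) and at 12 weeks (y axis), in log2 signal, for the 87 genes that passed the pooled test; the dashed line marks equal differences. Irf7, with 3.01 and 2.91, lies near the line, while Hmox1, Ugt2b7, Akr1b8 and Abcc2 lie above it.

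Pooling brought out genes that neither time showed alone. At 6 weeks alone 9 genes passed, 0.0408% of those tested, and at 12 weeks alone 72 passed, 0.326%. Irf7, Mx1, Usp18, Isg15 and Mmp12 passed at each time and in the pooled test. A further 4 genes of the pooled set passed at 6 weeks only, 39 at 12 weeks only, and 39 at neither time alone. Those 39 comprised 32 genes that rose and 7 that fell, and 35 of them lay apart at both times. Another 28 genes passed at 12 weeks and not in the pooled test. Across all 22084 genes the differences at 6 and 12 weeks, which share no array, had a Pearson correlation of 0.068, and 44.9% had the same sign. Of the 87 genes that passed the pooled test, 83 had the same sign at both times, a share that the pooled test itself favours.

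Of the 38 measured antiviral and other genes of the interferon list, 16 rose in the pooled test. All 38 had a positive pooled difference, against 50.2% of all genes tested. Of the 38, 23 lay apart upwards at both times, against 0.883% of all genes. Their median difference was 0.64 over both times, 0.87 at 6 weeks and 0.51 at 12 weeks, while the median of all genes was 0.0004 over both times. The mean signal of the list was 7.34 to 7.52 in CdCl2 kidneys of 6 weeks, against 6.39 to 6.56 in saline kidneys. At 12 weeks it was 7.03 to 7.27 in CdCl2 kidneys, against 6.28 to 6.51 in saline kidneys. The groups did not overlap at either time, which also held for the mean signal of the efflux pump list.

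Irf7, the transcription factor that amplifies interferon output, had signals of 10.47, 9.64 and 10.29 in CdCl2 kidneys of 6 weeks, against 7.30, 7.50 and 6.56 in saline kidneys. At 12 weeks Irf7 had 9.25, 10.24 and 9.53 in CdCl2 kidneys, against 6.99, 7.34 and 5.98 in saline kidneys. Every CdCl2 kidney thus exceeded every saline kidney, by 3.01 at 6 weeks and 2.91 at 12 weeks on average, with a pooled difference of 2.96 ± 0.29 (SE), at an adjusted p of 0.000268 (limma). Mx1, an antiviral GTPase, had 8.26, 7.92 and 8.25 in CdCl2 kidneys of 6 weeks, against 6.07, 5.99 and 5.85 in saline kidneys. It had 7.08, 7.46 and 6.92 in CdCl2 kidneys of 12 weeks, against 6.08, 5.88 and 5.43 in saline kidneys. Mx1 was thus separate at both times, with a pooled difference of 1.76 ± 0.16 (limma adjusted p = 0.000116), and its paralog Mx2 rose by 1.96 (limma adjusted p = 0.00695). Usp18, which removes ISG15 from proteins and damps interferon signalling, had 7.37, 7.19 and 7.38 in CdCl2 kidneys of 6 weeks, against 5.62, 5.92 and 5.65 in saline kidneys. At 12 weeks Usp18 had 6.80, 6.73 and 6.29 in CdCl2 kidneys, against 5.41, 5.41 and 5.42 in saline kidneys. Its difference of 1.39 ± 0.11 had, after that of Hmox1, the smallest adjusted p of the pooled test (limma, 5.62e-05).

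Genes for the ligand, the activating enzyme and a ligase of the ISG15 system rose. Isg15, the ubiquitin-like ligand, rose by 0.74 ± 0.09 (limma adjusted p = 0.00142). Uba7, its activating enzyme, rose by 0.65 (limma adjusted p = 0.00929), and Herc6, which serves as its ligase in mouse, rose by 1.75 (limma adjusted p = 0.00504). Sensors of double-stranded RNA also rose. The oligoadenylate synthetase family members Oasl, Oasl2, Oas2, Oas1i and Oas1a rose by 1.16, 0.86, 0.65, 0.69 and 0.46, all separate at both times. Eif2ak2, the kinase PKR, rose by 0.50, and Dhx58, the RIG-I-like receptor LGP2, by 0.61, with overlap at 12 weeks. Stat2, part of the factor that binds the response element, rose by 0.81, and the ADP-ribosyltransferase family members Parp9 and Parp14 by 0.96 and 1.06. Oas1i and Uba7 were not in the interferon list, so they are not among its 16 members that rose. With 1 array left out, Oas1i passed in 7 of 12 fits (limma adjusted p up to 0.0644) and Uba7 in all 12.

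No interferon gene that rose passed the test of a difference between 6 and 12 weeks. Of the 16, 15 were separate at both times, 10 had the larger difference at 6 weeks, and the adjusted p of the difference between times lay between 0.451 and 0.977 (limma), which does not show that the changes were equal. Irf7, Mx1, Mx2, Usp18, Isg15, Herc6, Oasl, Oasl2 and Oas2 passed without each array in turn, while the other 7 did not without at least 1. Of those 7, Ifi44 passed in 1 of the 12 fits that left out 1 array (limma adjusted p up to 0.155) and Oas1a in 2. Parp14 passed in 3, Dhx58, Eif2ak2 and Parp9 in 4 each and Stat2 in 5. Genes for the interferons themselves, looked up after the results were seen, stood at or near background. Of 13 measured, 11 averaged below the background level, Ifnl1 and Ifnl3 averaged 4.87 and 4.89, and 0 passed limma's test, with 0 at an unadjusted p under 0.05.

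**Figure D2:**
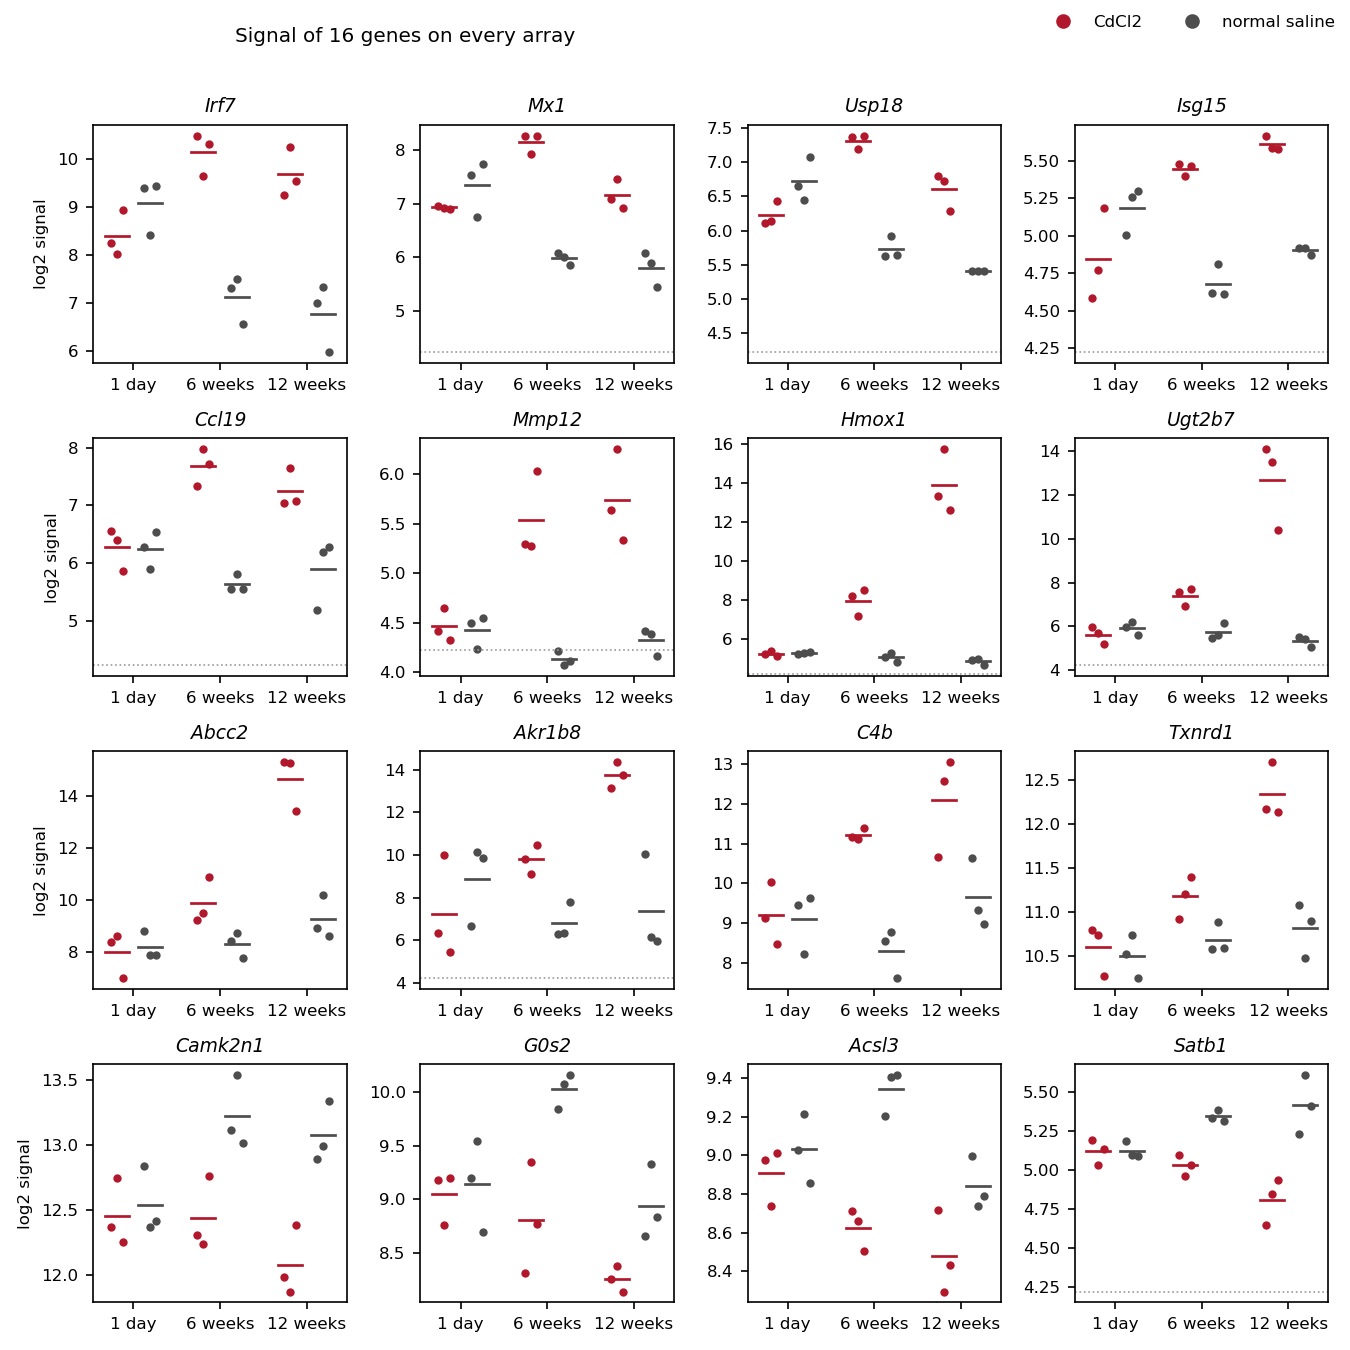
Log2 signal of 16 genes on each of the 18 arrays, with CdCl2 kidneys (red) left of normal saline kidneys (grey) at 1 day, 6 weeks and 12 weeks; points are arrays, short lines group means and dotted lines the background level of 4.22, drawn where it is near the values. CdCl2 and saline arrays are separate at both 6 and 12 weeks in all 16 panels.

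Some genes of antigen display and of myeloid cells rose as well. The class I histocompatibility genes RT1-S3, RT1-CE3, RT1-CE4 and RT1-T24-1 rose by 1.21, 0.84, 0.81 and 0.46 and are close paralogs whose probes may share signal. RT1-S3 overlapped at 12 weeks and the other 3 were separate at both times. With 1 array left out, RT1-T24-1 passed in 1 of 12 fits, RT1-CE3 in 8 and RT1-CE4 in 11. In the antigen presentation list 2 of 21 measured members rose and none fell, 18 had positive differences, and the median was 0.38. RT1-A1, a classical class I gene, differed by 0.51 and was separate at both times without passing (limma adjusted p = 0.0564).

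Among chemokines, Ccl19, which guides dendritic cells and T cells through the receptor CCR7, had 7.34, 7.98 and 7.71 in CdCl2 kidneys of 6 weeks, against 5.55, 5.81 and 5.55 in saline kidneys. At 12 weeks Ccl19 had 7.03, 7.64 and 7.08 in CdCl2 kidneys, against 5.19, 6.19 and 6.28 in saline kidneys. Ccl19 was separate at both times, with a difference of 1.70 ± 0.20 (limma adjusted p = 0.00142). Cxcl10, an interferon-induced attractant of T cells, rose by 1.92 (limma adjusted p = 0.0385) but overlapped at 12 weeks, where CdCl2 kidneys had 8.22, 9.16 and 8.02, against 8.03, 6.93 and 6.53 in saline kidneys. It passed in only 3 of the 12 fits that left out 1 array (adjusted p up to 0.12). Ccl9 rose by 0.79, with a difference of 0.04 at 6 weeks and 1.55 at 12 weeks. Nfkb2, the p100 precursor of the alternative NF-kB pathway, rose by 0.31. Ccl9 and Nfkb2 passed in 4 and 5 of those 12 fits. In the list of inflammatory signalling and chemokines 3 of 36 measured members rose, none fell, 29 had positive differences and the median was 0.20.

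Mmp12, the elastase of macrophages, lay above background in every CdCl2 kidney and near it in saline kidneys. It had 5.29, 5.28 and 6.04 in CdCl2 kidneys of 6 weeks, against 4.22, 4.07 and 4.12 in saline kidneys. At 12 weeks Mmp12 had 5.63, 6.25 and 5.34 in CdCl2 kidneys, against 4.41, 4.39 and 4.16 in saline kidneys. The saline mean at 6 weeks lay below background, so the difference there was at least 1.31 against the background level, and it was 1.42 at 12 weeks, with a pooled adjusted p of 0.000737 (limma). Itgax, the dendritic cell integrin CD11c, rose by 0.83 ± 0.12 (limma adjusted p = 0.00667). Gpnmb, a glycoprotein of phagocytes and injured tubules, rose by 1.76 ± 0.34 (limma adjusted p = 0.0399), but passed in only 2 of the 12 fits that left out 1 array (adjusted p up to 0.117). Cd52, a surface protein of leukocytes, rose by 0.73, and the cytokine receptor chains Csf2ra and Il3ra by 0.66 and 0.44. Csf2ra likewise passed in 2 of those 12 fits.

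The macrophage and dendritic cell list had a larger median at 6 weeks than at 12 weeks. Of its 30 measured members 28 had positive differences and 2 rose, with a median of 0.37 over both times, 0.85 at 6 weeks and 0.12 at 12 weeks. Its mean signal was 6.28 to 6.84 in CdCl2 kidneys of 6 weeks, against 5.62 to 5.94 in saline kidneys. At 12 weeks it was 5.85 to 6.32 in CdCl2 kidneys, against 5.87 to 5.96 in saline kidneys, with overlap. All 4 defining macrophage markers were above background, and Cd68 differed by 1.29, separate at both times, without passing (limma adjusted p = 0.0841). Csf1r, Tyrobp and Adgre1 had smaller pooled differences of 0.87, 0.76 and 0.35. At 12 weeks Adgre1 averaged 6.44 in CdCl2 kidneys, against 7.02 in saline kidneys, and Tyrobp averaged 5.27, against 5.12. More cells of a type and more RNA per cell cannot be told apart in whole kidney, and the part of macrophages in the interferon and class I differences was not tested. In the list of T, B and NK cells 0 of 29 measured members passed limma's test, and the median was 0.07. An unadjusted p under 0.05 was found in 5 of the 29, against 1979 of all 22084 genes.

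Complement component C4 rose strongly. C4b had 11.15, 11.10 and 11.39 in CdCl2 kidneys of 6 weeks, against 8.54, 8.76 and 7.60 in saline kidneys. At 12 weeks C4b had 10.67, 12.57 and 13.05 in CdCl2 kidneys, against 10.64, 9.32 and 8.99 in saline kidneys. The groups were far apart at 6 weeks, while at 12 weeks the lowest CdCl2 kidney lay just above the highest saline kidney. The pooled difference was 2.68 ± 0.43 (limma adjusted p = 0.0121), and that of its near-identical copy C4a was 2.45. The 2 genes may share probe signal and should be read as 1. The call was lost without CdCl2 replicates 3 of 6 weeks and 2 of 12 weeks together (adjusted p = 0.0882). In the complement list 2 of 18 measured members rose, both of them C4 genes, and the median was 0.18.

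Antioxidant, conjugation and export genes gave the largest rises, and all 10 of them that rose had the larger difference at 12 weeks. The medians of the whole lists did not all do so. For the NRF2 list the median was 0.13 at 6 weeks and 0.07 at 12 weeks, and for efflux pumps 0.69 and 0.24. For glutathione transferases it was 0.28 at 6 weeks and 0.50 at 12 weeks, and for conjugation and reduction 0.19 and 0.38. The test of the difference between times passed in 2 of the 10, Hmox1 and Ptgr1 (limma adjusted p over the 10 from 0.0102 to 0.517). In an additive model of time and treatment on the 12 arrays none of the 10 passed the pooled test (limma adjusted p from 0.0616 for Hmox1 to 0.378 for Ptgr1). Hmox1, which encodes the heme-degrading enzyme heme oxygenase 1, had 8.21, 7.16 and 8.52 in CdCl2 kidneys of 6 weeks, against 5.08, 5.30 and 4.84 in saline kidneys. At 12 weeks Hmox1 had 13.35, 15.74 and 12.60 in CdCl2 kidneys, against 4.91, 5.0 and 4.66 in saline kidneys. Every CdCl2 kidney lay above all saline kidneys, which differed little among themselves, by a mean of 2.89 at 6 weeks and 9.04 at 12 weeks. The pooled difference was 5.97 ± 0.39 (limma adjusted p = 5.86e-06). In the list of the NRF2 and antioxidant response 3 of 31 measured members rose and none fell, 23 had positive differences, and the median was 0.12. Txnrd1, thioredoxin reductase, rose by 1.01 ± 0.15 and was separate at both times (limma adjusted p = 0.00667). Bach1, the repressor of Hmox1, rose by 0.61, with a difference of 0.05 at 6 weeks and 1.18 at 12 weeks, and passed in 7 of the 12 fits that left out 1 array. In the fit of all probe sets its adjusted p was 0.0496 (limma). A dimmer Bach1 probe set differed by 0.42 and did not pass in that fit (limma adjusted p = 0.0526). Slc7a11, the cystine importer, differed by 0.98 without passing (limma adjusted p = 0.0841), and 12 weeks alone gave at least 1.35 against the background level, below which the saline mean lay (adjusted p = 0.0199).

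Of 26 measured enzymes that reduce or conjugate reactive molecules, 4 rose, each with the larger difference at 12 weeks. Ugt2b7, a UDP-glucuronosyltransferase, had 7.57, 6.95 and 7.71 in CdCl2 kidneys of 6 weeks, against 5.45, 5.59 and 6.15 in saline kidneys. At 12 weeks Ugt2b7 had 14.10, 13.48 and 10.40 in CdCl2 kidneys, against 5.50, 5.44 and 5.08 in saline kidneys. It was separate at both times, and the pooled difference was 4.50 ± 0.46 (limma adjusted p = 0.000391). Akr1b8, an aldo-keto reductase, had 9.83, 9.11 and 10.45 in CdCl2 kidneys of 6 weeks, against 6.30, 6.35 and 7.81 in saline kidneys. At 12 weeks Akr1b8 had 13.11, 14.35 and 13.76 in CdCl2 kidneys, against 10.05, 6.17 and 5.97 in saline kidneys. Saline replicate 1 of 12 weeks lay well above the other 2. Although the difference was 4.66 ± 0.87 (limma adjusted p = 0.0316), the gene passed in only 1 of the 12 fits that left out 1 array, the one without that saline kidney. Ephx1, microsomal epoxide hydrolase, rose by 2.18 and overlapped at 6 weeks, where 1 CdCl2 kidney had 14.20 and 1 saline kidney 14.51. Its call was lost without any of 7 arrays (adjusted p up to 0.0748). None of the 26 fell, 21 had positive differences and the median was 0.34.

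Glutathione transferases gave 1 call. Gsta3, an alpha class transferase, rose by 1.00 (limma adjusted p = 0.0209), with 0.29 at 6 weeks and 1.71 at 12 weeks, and was the 1 member of 19 measured that rose. It passed in 8 of the 12 fits that left out 1 array. Gstm1 and Gstp1, of the mu and pi classes, had the larger differences of 2.92 and 2.03 and did not pass (limma adjusted p = 0.111 and 0.164). Gstm1 had 12.75, 10.32 and 12.94 in CdCl2 kidneys of 6 weeks, against 9.36, 12.22 and 9.70 in saline kidneys, so that the lowest CdCl2 kidney lay below the highest saline kidney. The list had 15 positive differences and a median of 0.31.

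The export pump Abcc2, which carries glutathione, glucuronide and sulfate conjugates across the apical membrane, had 9.21, 9.49 and 10.86 in CdCl2 kidneys of 6 weeks, against 8.40, 8.73 and 7.76 in saline kidneys. At 12 weeks Abcc2 had 15.29, 15.26 and 13.41 in CdCl2 kidneys, against 8.93, 10.18 and 8.62 in saline kidneys. It was separate at both times, with a pooled difference of 3.48 ± 0.43 (limma adjusted p = 0.00198). Abcc3, its basolateral relative, rose by 1.06 ± 0.17 and was separate at both times (limma adjusted p = 0.0147), although the call was lost without saline replicate 3 of 6 weeks or of 12 weeks (adjusted p up to 0.0526). Abcc4 differed by 1.08 without passing (limma adjusted p = 0.111). In the efflux pump list 2 of 11 measured members rose, none fell, 9 had positive differences and the median was 0.34.

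The metallothioneins could be read only in part, because some of their probe sets were at the top of the scale. Mt1m and Mt2A lay within 0.5 of the ceiling on all 18 arrays, and the brighter probe set of Mt1 on 13 of them, so no difference can be read from these. Mt1f, a metallothionein 1 copy, had 16.09, 16.12 and 16.38 in CdCl2 kidneys of 6 weeks, against 14.01, 15.35 and 14.20 in saline kidneys. At 12 weeks Mt1f had 17.02, 16.46 and 16.39 in CdCl2 kidneys, against 12.90, 14.77 and 14.18 in saline kidneys. Mt1f was separate at both times, with a difference of 2.18 ± 0.38 (limma adjusted p = 0.0226), and it lost its call without any of 8 arrays (adjusted p up to 0.0759). The dimmer probe set of Mt1 ranged from 10.18 to 10.40 in CdCl2 kidneys of 6 weeks, against 9.23 to 9.85 in saline kidneys. At 12 weeks it ranged from 10.45 to 10.77 in CdCl2 kidneys, against 9.20 to 9.57 in saline kidneys. It was separate at both times with a difference of 1.04 and did not pass in the fit of all probe sets (adjusted p = 0.159). Metallothionein copies are nearly identical, and their probe sets may share signal.

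None of the 18 genes of the metal handling list, which holds Mt1, Mt1m and Mt2A but not Mt1f, passed limma's test. Of them 3 had an unadjusted p under 0.05, against 1979 of all 22084 genes, and the median difference was 0.03. Slc30a1, the zinc exporter ZnT1, differed by 1.19 (limma adjusted p = 0.173) and was separate at 6 weeks only, since at 12 weeks the lowest CdCl2 kidney had 9.71, against 10.59 in saline replicate 1. The zinc importers Slc39a10 and Slc39a4 differed by -0.37 and 0.48, and Slc39a8 and Slc39a14, which also carry cadmium, by -0.22 and 0.04. The zinc exporters Slc30a2, Slc30a4, Slc30a5 and Slc30a10 differed by 0.58, -0.17, 0.07 and -0.08. The iron and copper carriers Slc11a2, Slc31a1, Atp7a and Atp7b lay between 0.02 and 0.07. Mtf1, the zinc-sensing activator of metallothionein genes, differed by -0.08 and the brain-type metallothionein Mt3 by 0.13. The small values of this list did not hold their sign under every processing.

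Further genes that rose had no list in common. Csmd1, a complement regulator, had 8.06, 8.46 and 6.83 in CdCl2 kidneys of 12 weeks, against 5.58, 4.84 and 5.19 in saline kidneys. Its pooled rise was 1.68 (limma adjusted p = 0.00504), with the larger difference at 12 weeks. Plk2, a stress-induced kinase and p53 target, was separate at both times and rose by 1.56 ± 0.26 (limma adjusted p = 0.0168), the 1 member of 19 measured in the p53 list to pass. Myc, the growth transcription factor, rose by 0.88 and was separate at both times (limma adjusted p = 0.0272). Zfand2a, a proteasome-associated protein known for its induction by arsenite, rose by 0.86 with 0.29 at 6 weeks and 1.42 at 12 weeks. Lgals9 and Lgals3bp, a galectin and a galectin-binding glycoprotein, rose by 1.16 and 1.51, both separate at both times. Gpnmb was the 1 member of 22 in the tubular injury list that rose, and the list's median was 0.39 over both times, 0.30 at 6 weeks and 0.03 at 12 weeks. Slc17a3, an organic anion and urate carrier of the proximal tubule, rose by 1.72 but overlapped at 6 weeks. With 1 array left out, Myc and Slc17a3 each passed in 4 of 12 fits, Plk2 in 8 and Lgals3bp in 9.

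The genes that fell were few, belonged to none of the 39 lists and moved by less than 1 on the log2 scale. Camk2n1, an inhibitor of calcium/calmodulin-dependent kinase II, had 12.31, 12.24 and 12.76 in CdCl2 kidneys of 6 weeks, against 13.11, 13.54 and 13.02 in saline kidneys. At 12 weeks Camk2n1 had 11.98, 11.87 and 12.39 in CdCl2 kidneys, against 12.89, 12.99 and 13.34 in saline kidneys. It was separate at both times, with a difference of -0.89 ± 0.14 (limma adjusted p = 0.0134). G0s2, an inhibitor of triglyceride lipase, had 8.31, 9.35 and 8.77 in CdCl2 kidneys of 6 weeks, against 9.85, 10.08 and 10.16 in saline kidneys. At 12 weeks G0s2 had 8.25, 8.38 and 8.14 in CdCl2 kidneys, against 8.66, 9.33 and 8.83 in saline kidneys. Its difference of -0.95 ± 0.18 (limma adjusted p = 0.0343) passed in only 2 of the 12 fits that left out 1 array, those without CdCl2 replicate 2 of 6 weeks and saline replicate 1 of 12 weeks. Acsl3, a long-chain acyl-CoA synthetase, fell by 0.54 and the chromatin organiser Satb1 by 0.46 (limma adjusted p = 0.0164 and 0.00695). Ppp1r2l1, Raph1, Papln and Itsn1, the last a scaffold of endocytosis, had differences of -0.48, -0.43, -0.41 and -0.30 and were separate at both times. With 1 array left out, Itsn1 passed in 4 of 12 fits, Raph1 in 6, Papln in 7 and Acsl3 in 10. None of the 12 genes that fell had a difference between times that passed (limma adjusted p from 0.306 to 0.984).

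Most members of the proximal tubule transport and fatty acid oxidation lists had negative differences, and no member of either list passed. Of 29 measured genes of fatty acid oxidation and PPARA targets, 24 had negative differences, with a median of -0.28 over both times, -0.07 at 6 weeks and -0.59 at 12 weeks. Decr1, a mitochondrial reductase of unsaturated fatty acids, differed by -1.04 (limma adjusted p = 0.0841), and 7 of the 29 had an unadjusted p under 0.05. Of 28 measured proximal tubule transport genes, 21 had negative differences, with a median of 0.01 at 6 weeks and -0.65 at 12 weeks, and 1 had an unadjusted p under 0.05. The mean of these 28 genes was low on CdCl2 replicates 1 and 3 of 12 weeks, at 12.73 and 12.38, and also on saline replicate 1, at 13.04. These means are of the same genes, so they restate the difference of the transport list. Their part in the fatty acid oxidation difference was not tested. Of 35 measured cell cycle genes 34 had positive differences, with a median of 0.19, 0 passed limma's test and 13 had an unadjusted p under 0.05. Rrm2, the ribonucleotide reductase subunit of dividing cells, differed by 0.61 and was separate at both times (limma adjusted p = 0.197). Of all 22084 genes, 50.2% had a positive difference and 1979 had an unadjusted p under 0.05.

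**Figure D3:**
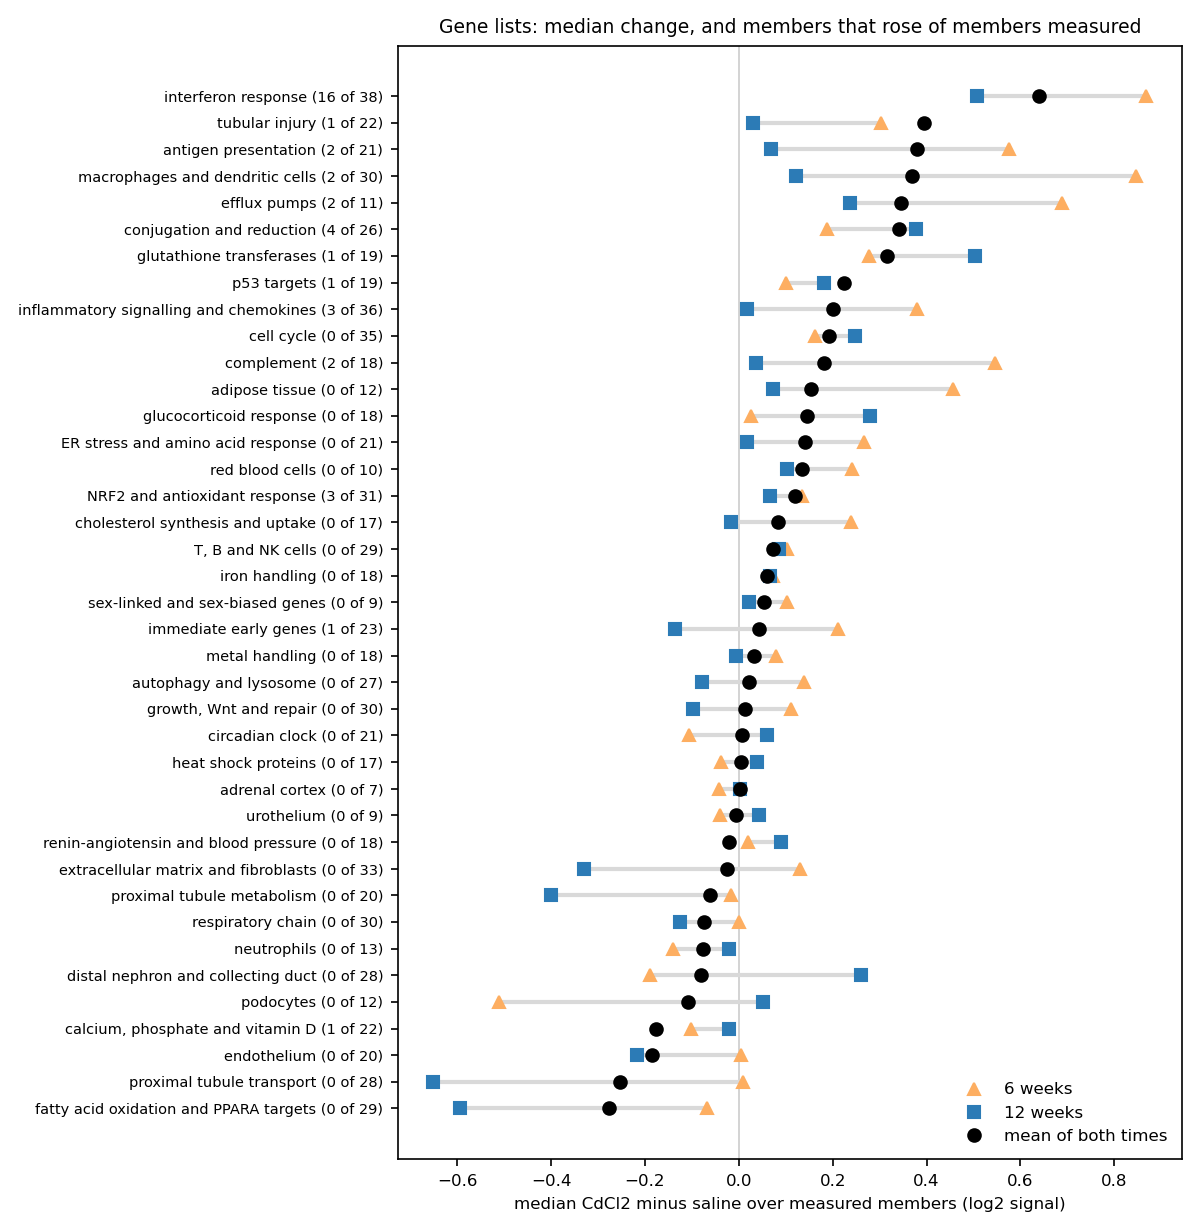
Median difference between CdCl2 and saline kidneys over the measured members of 39 gene lists, in log2 signal, at 6 weeks (triangles), at 12 weeks (squares) and over both times (circles), with the members that rose and the members measured in brackets. The interferon list has the highest median, 0.64, and the fatty acid oxidation list the lowest, -0.28.

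The size of the change differed between 6 and 12 weeks in 3 genes, 0.0136% of those tested, all of which had also passed the pooled test. They were Hmox1, Ptgr1 and LOC102552091. Ptgr1, a reductase of leukotrienes and alkenals, had 7.24, 7.12 and 7.29 in CdCl2 kidneys of 6 weeks, against 7.33, 7.50 and 7.01 in saline kidneys. At 12 weeks Ptgr1 had 10.84, 12.64 and 10.83 in CdCl2 kidneys, against 6.60, 6.98 and 7.21 in saline kidneys. It overlapped at 6 weeks and was far apart at 12 weeks, so its pooled difference of 2.22 came from 12 weeks (adjusted p of the difference between times = 0.0102, limma). Ugt2b7, with 1.68 and 7.32, did not pass that test (adjusted p = 0.0796), nor did Apoc2, Cimap2 and Mypn (adjusted p = 0.0934, 0.14 and 0.0698). Without saline replicate 2 of 6 weeks the test between times passed for none of the 3 (adjusted p = 0.0559 for Hmox1 and 0.052 for each of the others). With the 12 arrays alone it was lost for Hmox1 and Ptgr1 (adjusted p = 0.129 and 0.076), and with the clock difference as a covariate for Hmox1 (adjusted p = 0.0635). Of the 75 genes that rose, 45 had the larger difference at 12 weeks and 30 at 6 weeks.

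The change over 6 and 12 weeks differed from that at 1 day in 6 genes, 0.0272% of those tested, and 5 of them were interferon genes. These were Usp18, Mx1, Irf7, Isg15 and Oasl, with Hmox1 the sixth. Usp18, Mx1 and Hmox1 passed in all 23 alternatives, Irf7 in 21, Isg15 in 16 and Oasl in 10 (adjusted p up to 0.0654, 0.0839 and 0.139 for the last 3). At 1 day 0 genes passed limma's test and 433 had an unadjusted p under 0.05. Irf7 had 8.25, 8.02 and 8.93 in CdCl2 kidneys of 1 day, against 9.40, 8.41 and 9.44 in saline kidneys, a difference of -0.68. All 6 of these values exceeded every saline kidney of 6 and 12 weeks, and 4 of them lay below every CdCl2 kidney of those times. Of the 16 interferon genes that rose, 13 had a negative difference at 1 day, and in all 16 the saline mean at 1 day exceeded that of the later times. The same held for the saline mean of 37 of the 38 measured members of the interferon list. The mean signal of that list was 6.82 to 7.19 in CdCl2 kidneys of 1 day and 6.85 to 7.34 in saline kidneys of 1 day. Both ranges overlapped the 7.03 to 7.27 of CdCl2 kidneys of 12 weeks. Hmox1 had 5.25, 5.38 and 5.12 in CdCl2 kidneys of 1 day, against 5.22, 5.31 and 5.34 in saline kidneys, close to the saline kidneys of the later times. Camk2n1 had 12.37, 12.75 and 12.25 in CdCl2 kidneys of 1 day, against 12.84, 12.37 and 12.41 in saline kidneys, which is nearer to the CdCl2 kidneys of the later times than to the saline ones. Whether the rats of each time were of 1 cohort is not given in the sources used here, and time and age cannot be told apart.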

How the data were processed

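Signal values were taken from the deposited series matrix, in log2 units per the values themselves; the authors' background correction and normalization are not given in the sources used here. The 70570 probe sets included 186 controls, 23437 with 1 gene symbol, 505 with several and 46442 with none. Per gene, the probe set of highest mean was used (22084 genes; 1182 had several). The 6 groups of 3 arrays were fitted as means with limma 3.58.1 in R 4.3.3 on all 18 arrays (12 residual degrees of freedom), and contrasts were adjusted by Benjamini-Hochberg over all genes at 0.05, two-sided. The method was tested on simulated data. The number of arrays limits the precision.

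The groups and the 39 gene lists were chosen with earlier results of these data known, so the lists are described by counts and medians and carry no test of their own. The genes named are up to 12 with the largest rise and up to 12 with the largest fall among those separate at both times, up to 4 of smallest p per list, every metal handling gene, and those of smallest p in the other 2 contrasts. Other genes that passed, and the interferon genes themselves, were chosen after their values were seen. Replicate numbers were not used as pairs, because same-numbered arrays did not deviate together, although so few arrays cannot exclude pairing. Alternatives covered normalization, probe set choice, filters, models, covariates and left-out arrays. Promoters came from RefSeq (GRCr8).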

Additional observations from a re-analysis of the deposited data

Results flagged for a closer look

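The change in 3 genes differed between 6 and 12 weeks by a test of the difference itself. The difference at 12 weeks minus that at 6 weeks was 6.15 for Hmox1, 4.57 for Ptgr1 and 1.11 for LOC102552091 (limma adjusted p = 0.0102, 0.0102 and 0.0102).

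The change over 6 and 12 weeks differed from the change at 1 day in 6 genes. The long exposure difference minus the 1-day difference was 1.88 for Usp18 and 6.01 for Hmox1 (limma adjusted p = 0.00267 and 0.00357). It was 2.18 for Mx1, 3.64 for Irf7, 1.08 for Isg15 and 1.69 for Oasl (limma adjusted p = 0.0081, 0.0177, 0.019 and 0.0313). In the 5 interferon genes of this set the 1-day saline kidneys were higher than the later saline kidneys.

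Probe sets with no gene name were outside the comparisons of genes. In a fit of all 70384 probe sets, 69 passed the pooled test and 15 of these had no gene name. All 15 were higher in CdCl2 kidneys, by 0.48 to 5.79, and 6 were separate at both times.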

How the results depend on the processing

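None of the 87 genes changed direction in any of the 25 alternatives. These genes were chosen by the main fit and the alternatives share most or all of its arrays, so an unchanged direction was favoured in advance. Of the 87 genes, 12 passed in every alternative: Irf7, Mx1, Usp18, Isg15, Oasl, Oas2, Herc6, Uba7, Ccl19, Mmp12, Itgax and Camk2n1. The counts varied. Against 75 genes that rose and 12 that fell, of which 51 and 9 were separate at both times, with 9 at 6 weeks, 72 at 12 weeks, 3 between times and 6 against 1 day, array weights gave 256, 140, 115, 47, 500, 127, 14 and 10. The 12 arrays alone gave 47 that rose, with 16 at 6 weeks, 34 at 12 weeks and 1 between times, and an additive model of time and treatment gave 25 and 4, all separate at both times. With the replicate number as a block, 43 rose (32 separate at both times), with 3 at 6 weeks and 3 against 1 day. Same-numbered arrays had correlations of their deviations from -0.33 to 0.08, against -0.46 to 0.52 for other pairs of CdCl2 and saline arrays. With 3 arrays a group, these values cannot settle whether the numbers pair the kidneys. All probe sets gave 5 that fell (4 separate), 3 at 6 weeks and 132 at 12 weeks. The clock difference as a covariate gave 67 at 6 weeks and 47 at 12 weeks. The proximal tubule level as a covariate gave 5 between times and 12 against 1 day. Median centring gave 5 and quantile normalization 7 between times, and a trended robust prior 14 at 6 weeks. Without CdCl2 replicate 3 of 6 weeks and replicate 2 of 12 weeks, an alternative added after the data were seen, 34 rose and 3 fell (29 and 3 separate), with 26 at each time. The causes were not tested.

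With 1 array left out at a time, 33 to 106 genes rose and 4 to 50 fell, 26 to 82 and 3 to 37 of them separate at both times. Such fits gave 2 to 32 at 6 weeks, 33 to 108 at 12 weeks, 0 to 17 between times and 4 to 9 against 1 day. The rises numbered 33 without saline replicate 3 of 6 weeks, 36 without saline replicate 3 of 12 weeks, 37 without CdCl2 replicate 1 of 6 weeks or replicate 2 of 12 weeks, 39 without saline replicate 1 of 6 weeks and 49 without CdCl2 replicate 2 of 6 weeks. The falls numbered 50 without saline replicate 1 of 12 weeks, 4 without CdCl2 replicate 2 of 12 weeks, 5 without CdCl2 replicate 1 of 6 weeks, 7 without saline replicate 2 of 12 weeks, and 6 without saline replicate 2 or 3 of 6 weeks or replicate 3 of 12 weeks.

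Of the named genes that did not pass, 5 genes of metal handling, all with differences under 0.3, changed sign. Median centring gave -0.012 for Atp7a and -0.0043 for Slc31a1. Quantile normalization gave -0.00043 for Slc39a14. Mt1m and Mt2A are saturated, so their fitted values near 0 carry no direction (-0.0095 and -0.0085 with median centring, 0 and -0.011 with quantile normalization). Slc39a8 gave 0.13 with array weights and Slc31a1 -0.0039 with the clock covariate. With 1 array left out, values lay between -0.55 and 0.22 for Slc39a8, -0.062 and 0.11 for Slc39a14, -0.076 and 0.16 for Slc11a2, -0.040 and 0.13 for Atp7a, and -0.11 and 0.16 for Slc31a1. Without both arrays named above, Slc39a14, Slc11a2, Atp7a and Slc31a1 gave -0.028, -0.085, -0.0042 and -0.085.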

Other observations

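Lists outside the main comparisons gave the following values, where 1979 of all 22084 genes had an unadjusted p under 0.05. Cyp24a1, the 24-hydroxylase that inactivates vitamin D, had 10.34, 10.15 and 9.84 in CdCl2 kidneys of 6 weeks, against 12.15, 15.06 and 12.69 in saline kidneys, and the groups did not overlap. At 12 weeks Cyp24a1 had 8.78, 11.79 and 11.38 in CdCl2 kidneys, against 14.98, 11.53 and 14.57 in saline kidneys, with overlap, and the pooled difference of -3.12 did not pass (limma adjusted p = 0.14). Slc20a1, a sodium-phosphate carrier, rose by 0.51 and was the 1 member of 22 measured in the calcium, phosphate and vitamin D list to pass (limma adjusted p = 0.0385), although it passed in only 3 of the 12 fits that left out 1 array. Most of that list went the other way: 17 of the 22 had negative differences, the median was -0.18, and 5 had an unadjusted p under 0.05. The list's mean signal was 9.74 to 9.92 in CdCl2 kidneys of 6 weeks, against 10.26 to 10.49 in saline kidneys, and overlapped at 12 weeks. Heat shock proteins had a median difference of 0.0039, with 0 of 17 passing limma's test and 2 with an unadjusted p under 0.05. The ER stress and amino acid response list had a median of 0.14, with 0 of 21 passing and 1 with an unadjusted p under 0.05. Red blood cell genes had a median of 0.14, with 0 of 10 passing and 2 with an unadjusted p under 0.05. Podocyte genes had a median of -0.11, with -0.51 at 6 weeks and 0.05 at 12 weeks, and 0 of 12 passed, with 1 at an unadjusted p under 0.05.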
